A study of Mus musculus with 6 samples.

Results

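The 48 genes described here are the growth regulator Myc, its relative Mycn, their partner Max, and 45 genes whose products build ribosomes in the nucleolus. They were chosen by name, with earlier results of these data known, so counts over them are descriptions. Each gene was read on the probe set that carried its symbol alone and had the highest mean over all 6 arrays. All 48 were found, out of 18193 genes with a single symbol on the array, and all 48 passed the filter on dim probe sets (a mean log2 intensity of at least 4), as did 9679 genes in all. The lowest member mean was 5.96, so none of the members was read near the array's floor.

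A ribosome starts as a long ribosomal RNA precursor that RNA polymerase I transcribes in the nucleolus. Small nucleolar ribonucleoproteins (snoRNPs) modify that precursor, and large sets of assembly factors cut and fold it into the small and the large subunit while ribosomal proteins join. MYC binds DNA as a pair with MAX and raises transcription of many of these genes, and in the intestinal crypt Myc is itself a target of Wnt signalling, which keeps the stem and transit-amplifying cells dividing. Sox9 encodes a transcription factor made in the lower crypt, in stem cells and Paneth cells.

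The arrays hold RNA from jejunal crypt epithelium of C57BL/6 mice aged 3 months: 3 Sox9 deficient mice (KO 1 to KO 3) and 3 wild type littermates (WT 1 to WT 3), with 1 array for each mouse. The study asked which genes Sox9 regulates. The labels give neither the promoter that drove the deletion nor the sex of a mouse, nor which animals share a litter. Values are log2 GCRMA intensities, and a difference is the KO mean minus the WT mean on that scale. Because the samples are bulk RNA, fewer cells of a type and less RNA per cell cannot be told apart. Arrays carry no read depth, so precision depends on the number of mice. With 3 against 3, the smallest p that an exact two-sided permutation test can give is 0.1. Array values listed for a group are in the order of the mouse numbers.

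For Sox9 itself, 1 of 3 probe sets was low in KO mice (2.42 to 2.75) and high in WT mice (5.84 to 7.61), as the labels have it; another read 5.81 ± 0.50 and 4.76 ± 1.85 (SD, n = 3 each), and which of them lie in the deleted stretch was not checked. Epithelial genes were bright on all arrays, as in villin (Vil1, 14.05 to 14.73) and the goblet mucin Muc2 (13.50 to 14.43). Of 8 stromal genes 1 passed the filter, and of 8 lymphocyte genes 7 did, with a list mean of 6.82 to 7.56 on the KO arrays and 5.22 to 7.42 on the WT arrays. Of 6 measured Paneth cell genes 5 read lower in KO and none passed the test, with a list mean of 10.85 to 11.83 against 12.29 to 12.90 in WT. Their part in the values below was not tested. Only 2 of 18108 probe sets, both of Igfbp4, passed limma at an adjusted p of 0.05. Signal from Y-linked genes was 7.59 on WT 1 and 8.19 on WT 2 and between 2.64 and 2.74 on the other 4 arrays, where the X-inactivation RNA Xist was high (at least 12.3, against 1.92 and 3.72). Genotype and this sex-linked signal therefore overlap in part, with WT 3 the only control that resembles the KO arrays in it.

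The DNA letters that MYC and MAX recognise together, CACGTG, read the same on both strands, so 1 search covers both. RefSeq promoter windows (GRCm38.p6, 250 bases before to 50 after each gene's start) matched 43 of the 48 members by symbol; Myc, Fbl, Bop1, Rrs1 and Npm1 had no entry. CACGTG occurred in a window of 11 of the 43 (25.6%), in 979 of the 7951 filtered genes that have a window (12.3%) and in 7.15% of all 32851 windows. A match is a run of letters and not a measured binding site. The 11 are shown because they hold the MYC-MAX motif near the start of genes of this module. Each line gives 30 bases from 5′ to 3′ on the gene's strand with the motif in capitals, or, for Rrn3, the member with 2 matches, the 250 bases before the start. Positions count from 1 at the first base after the 250 upstream bases, and backwards from -1 before it; that base equals the gene's annotated start in 60.4% of all windows.
Max (chr12:76962234-76962263, minus strand, match at -3): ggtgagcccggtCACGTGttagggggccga
Tsr1 (chr11:74898092-74898121, plus strand, match at 25): tcacttggtgcaCACGTGgactgcagaatg
Mybbp1a (chr11:72441347-72441376, plus strand, match at 41): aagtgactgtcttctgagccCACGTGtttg
Nle1 (chr11:82908355-82908384, minus strand, match at 24): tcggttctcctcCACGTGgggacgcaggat
Pes1 (chr11:3963965-3963994, plus strand, match at 3): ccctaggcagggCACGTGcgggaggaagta
Imp4 (chr1:34439696-34439725, plus strand, match at -121): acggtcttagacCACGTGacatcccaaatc
Nop2 (chr6:125131811-125131840, plus strand, match at -60): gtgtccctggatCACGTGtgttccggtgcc
Wdr43 (chr17:71616220-71616249, plus strand, match at 18): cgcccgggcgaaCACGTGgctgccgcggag
Ltv1 (chr10:13193092-13193121, minus strand, match at 29): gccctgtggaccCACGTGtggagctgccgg
Utp20 (chr10:88826765-88826794, minus strand, match at 38): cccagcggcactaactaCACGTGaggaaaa
Rrn3 upstream (chr16:13780449-13780698, plus strand, matches at -215 and -48): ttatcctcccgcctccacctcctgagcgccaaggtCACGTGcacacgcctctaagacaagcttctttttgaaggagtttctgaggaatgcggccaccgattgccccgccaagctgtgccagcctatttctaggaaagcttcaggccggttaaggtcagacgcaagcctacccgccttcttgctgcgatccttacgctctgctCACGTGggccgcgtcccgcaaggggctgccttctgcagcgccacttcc

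The motif stood before that base in Imp4, Nop2 and Rrn3, spanned it in Max and lay after it in the other 7. The median difference was 0.24 over the 11 members with a match (from -0.06 in Utp20 to 0.62 in Tsr1) and 0.32 over the 32 without (from -0.18 in Ddx21 to 0.66 in Polr1c). Tsr1 and Mybbp1a, with a match, and Polr1c and Nob1, without, were all among the members whose genotypes did not overlap.

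Most members read somewhat higher in the Sox9 deficient crypts, by small amounts that no single gene carried past the test. The difference was above 0 in 46 of 48 members, against 56.2% of all 9679 genes. The median difference was 0.31 (1.24-fold), against 0.04 (1.03-fold) over all genes. It ranged from -0.18 for Ddx21 to 0.80 for Myc, and 9 members exceeded 0.5. None of the 48 passed over all probe sets, where 0.0110% were called: limma's adjusted p was 0.914 for Myc and at least 0.9987 for the other 47. An unadjusted limma p under 0.05 was reached by 2 members, Myc and Tsr1 (4.17%, against 1.96% of all genes in that direction). All KO arrays lay above all WT arrays in 6 members (12.5%, against 5.54% of all genes) and below them in 0 (3.99% of all genes). The 95% intervals reached a median of 0.62 to either side and included 0 in 46 members.

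In their median, the members varied more among the control mice than among the KO mice. WT 2 was the lowest of the 6 arrays in 38 of 48 members (79.2%), against 22.9% of all genes. The members' median deviation from each gene's mean was 0.15, 0.17 and 0.11 in the KO mice, and 0.16, -0.55 and -0.14 in the WT mice. WT 1 thus stood level with the KO arrays. The KO mean was above WT 1 in 24 of 48 members, with a median difference of -0.00, above WT 3 in 40 of 48 (0.28) and above WT 2 in 47 of 48 (0.70). Over all genes the corresponding shares were 53.2%, 54.3% and 54.3%. Without WT 2 the count of members with a positive difference went from 46 to 38. The members' median went from 0.31 to 0.14, and 44 members had a smaller difference. WT 2 was picked from these values as the array lowest in most members, so a smaller difference without it was built in. Without WT 1 the count was 46 and the median 0.50, and without WT 3 they were 43 and 0.31.

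**Figure D1:**
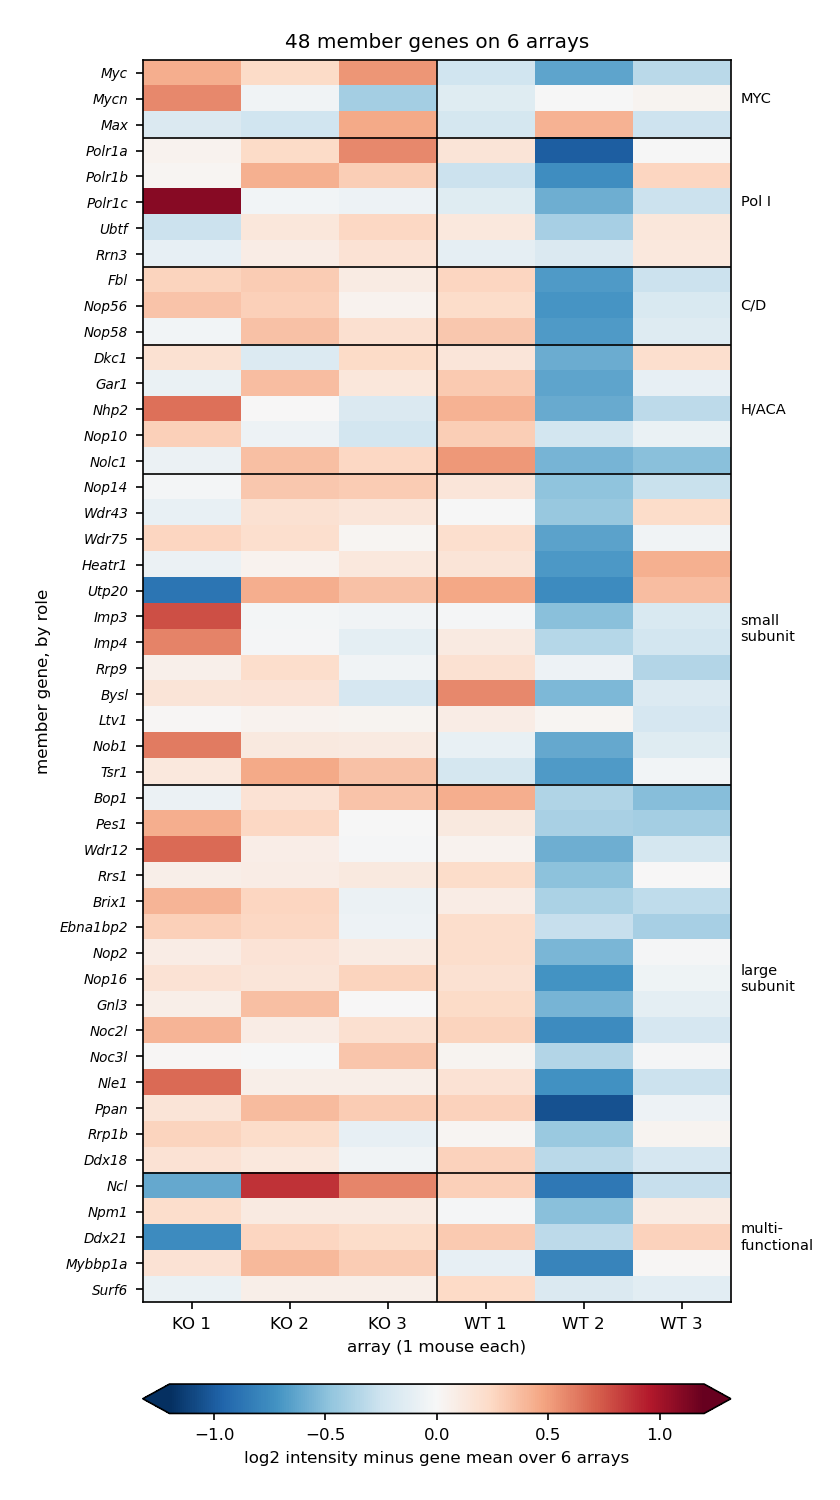
Log2 intensity of each of the 48 members minus its mean over the 6 arrays, with genes in rows ordered by role and arrays in columns. WT 2 is the bluest column (lowest in 38 of 48 members), WT 1 resembles the KO columns, and the Myc row is red on all KO arrays and blue on all WT arrays.

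Within the MYC network, Myc alone separated the genotypes. It read 9.77, 9.56 and 9.87 in the KO mice and 9.10, 8.70 and 9.01 in the WT mice. Every KO array lay above every WT array, and the closest pair was KO 2 and WT 1. The means were 9.73 ± 0.16 and 8.94 ± 0.21 (SD, n = 3 each). Myc was thus higher by 0.80 ± 0.19 (SE), which is 1.74-fold with a 95% interval of 1.26 to 2.39. This is the smallest p of the 48 members, yet it did not pass over all probe sets (limma adjusted p = 0.914), and the exact two-sided permutation p was 0.1, the smallest that 3 mice against 3 allow. The difference was 0.68 without WT 2 and 0.72 on the 4 arrays with high Xist, and over the 6 arrays left out in turn it stayed between 0.68 and 0.88.

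Mycn, the paralogue better known from embryonic and neural growth, read 7.22, 6.60 and 6.23 in the KO mice and 6.49 to 6.67 on the WT arrays. KO 1 was the highest and KO 3 the lowest of the 6, so the KO arrays surrounded the WT arrays, and the difference of 0.08 turned to -0.18 without KO 1. Max, the partner that MYC needs to bind DNA, read 9.66 on KO 3 and 9.61 on WT 2 and 8.95 to 9.03 on the other 4 arrays. Its difference was 0.03 (95% interval -0.65 to 0.71) and went below 0 when KO 3, WT 1 or WT 3 was left out. WT 2, the lowest array for most members, was the second highest for Max.

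Genes of RNA polymerase I transcription all had positive differences, 5 of 5 (56.2% of all genes), with a median of 0.50. The catalytic subunit gene Polr1a read 7.30, 7.49 and 7.84 in the KO mice and 7.41, 6.27 and 7.26 in the WT mice. WT 2 stood well below the other arrays, WT 1 lay above KO 1, and the difference of 0.56 was 0.21 without WT 2. Polr1b, the second-largest subunit, read 6.75, 7.16 and 7.03 in KO and 6.47, 5.99 and 6.99 in WT, and its difference of 0.50 was -0.01 against WT 3 alone.

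Polr1c, a subunit that RNA polymerases I and III share, read 11.41, 10.28 and 10.26 in the KO mice and 10.17, 9.73 and 10.06 in the WT mice. The groups did not overlap, but KO 1 stood far above the other KO arrays, and the difference of 0.66 ± 0.35 (SE) was 0.28 without KO 1. Its second probe set separated the genotypes too (0.75). Of the factors that start polymerase I transcription, Ubtf, which opens ribosomal DNA, differed by 0.09 (95% interval -0.48 to 0.65) and Rrn3, which recruits the polymerase, by 0.11 (-0.32 to 0.54). Ubtf overlapped widely, from 7.80 to 8.30 in KO and 7.66 to 8.19 in WT. Rrn3 read 7.74, 7.92 and 8.01 in KO and 7.73, 7.66 and 7.97 in WT, with WT 3 inside the KO range. Against WT 3 alone both were slightly negative (-0.09 and -0.07).

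The box C/D snoRNPs place methyl groups on ribosomal RNA, and their core genes were all lowest on WT 2. The methyltransferase gene Fbl (fibrillarin) read 11.89, 11.92 and 11.71 in the KO mice and 11.88, 10.94 and 11.36 in the WT mice. Its KO mean was 11.84 ± 0.11 and its WT mean 11.39 ± 0.47 (SD, n = 3 each), a difference of 0.45 that was 0.22 without WT 2. WT 1 was inside the KO range. The scaffold genes Nop56 (0.45) and Nop58 (0.34) were likewise lowest on WT 2 and next lowest on WT 3. Only 1 of the 3, Nop56, had a KO mean above WT 1. The KO mean was above WT 3 in all 3, by 0.48 (Fbl), 0.41 (Nop56) and 0.32 (Nop58).

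The box H/ACA snoRNPs convert uridines of ribosomal RNA to pseudouridine. Differences were 0.16 for the pseudouridine synthase Dkc1, 0.28 for Gar1, 0.33 for Nhp2, 0.00 for Nop10 and 0.36 for the snoRNP chaperone Nolc1. The KO mean lay below WT 1 in all 5 of these genes, with a median difference of -0.25, and above WT 2 in all 5. Nop10 read 13.08, 12.74 and 12.58 in KO and 13.09, 12.58 and 12.72 in WT, so the genotypes covered the same range (95% interval of the difference -0.54 to 0.54). Nolc1 read 8.97 to 9.40 in KO, while WT 1 was the highest array at 9.56 and WT 2 and WT 3 the lowest at 8.48 and 8.54.

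Factors of the small subunit were positive in 11 of 12 (56.2% of all genes), with a median difference of 0.23. All KO arrays lay above all WT arrays in 2 of them, Tsr1 and Nob1 (5.54% of all genes). Tsr1, a late assembly factor of the small subunit, read 9.28, 9.60 and 9.50 in the KO mice and 8.94, 8.47 and 9.11 in the WT mice. All KO arrays were above all WT arrays, with WT 2 the farthest away. The difference was 0.62 ± 0.23 (SE), or 1.54-fold (95% interval 1.06 to 2.24), and limma's adjusted p was 0.999. It was 0.44 without WT 2 and 0.35 on the arrays with high Xist. The second, dimmer Tsr1 probe set differed by 0.34 and its groups overlapped, with WT 1 (7.74) and WT 3 (7.72) above KO 1 (7.60). With the mean of its probe sets Tsr1 differed by 0.48.

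Nob1, the nuclease that makes the final cut in the small subunit's RNA, read 9.44, 8.94 and 8.93 in the KO mice and 8.73, 8.21 and 8.67 in the WT mice. The groups did not overlap, and the difference of 0.57 ± 0.24 (SE) was 0.40 without KO 1 and 0.41 without WT 2. Of the U3 particle's genes, Imp3 (0.47) and Imp4 (0.30) were highest on KO 1 (10.56 and 10.23), Imp4 read 9.63 and 9.52 on the other KO arrays and 9.75, 9.30 and 9.43 in WT, and Rrp9 differed by 0.15. In the large early assembly complex, the small subunit processome, Nop14 differed by 0.40, Wdr75 by 0.32, Wdr43 by 0.16 and Heatr1 by 0.07; without WT 2 these were 0.26, 0.08, -0.03 and -0.26. Nop14 read 7.61, 7.96 and 7.93 in KO and 7.78, 7.15 and 7.37 in WT, where WT 1 lay above KO 1. Wdr75 read 9.10, 9.04 and 8.86 in KO and 9.05, 8.20 and 8.80 in WT. Utp20, of the same complex, read 7.03 on KO 1 and 7.15 on WT 2 and 8.25 to 8.37 on the other 4 arrays. Its difference was -0.06 and ran from -0.45 without WT 2 to 0.37 without KO 1. The late factors Bysl (0.08) and Ltv1 (0.06) overlapped. Bysl read 7.93, 7.95 and 7.58 in KO and 8.36, 7.24 and 7.62 in WT, and Ltv1 varied least of the late factors, from 9.62 to 9.65 in KO and 9.41 to 9.70 in WT.

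Factors of the large subunit were positive in 15 of 15 (56.2% of all genes), with a median of 0.32. None separated the genotypes, where 5.54% of all genes had KO above WT and 3.99% had KO below WT. WT 2 was lowest in 12 of them and WT 3 in the other 3. The KO mean was above WT 3 in all 15 and above WT 1 in 8. The 3 genes of the PeBoW complex, which processes the large subunit's RNA, differed by 0.45 (Pes1), 0.29 (Bop1) and 0.50 (Wdr12). Pes1 read 9.59, 9.40 and 9.14 in KO and 9.27, 8.77 and 8.74 in WT, where WT 1 lay above KO 3. Bop1 read 8.91, 9.16 and 9.32 in KO, below WT 1 at 9.42 and above WT 2 and WT 3 at 8.63 and 8.47. Wdr12 read 9.04, 8.44 and 8.35 in KO and 8.41, 7.77 and 8.15 in WT, and KO 1 stood above the rest.

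Single arrays, WT 2 or KO 1, moved several of the wider differences in this group. Without KO 1, Wdr12 differed by 0.28 and Pes1 by 0.35; without WT 2, by 0.33 and 0.37. Ppan, which acts on the pre-60S particle, read 7.76 to 7.98 in KO and 7.88, 6.56 and 7.54 in WT, so its difference of 0.55 was 0.17 without WT 2. Nle1, another pre-60S factor and a regulator of Notch signalling, read 7.30, 6.69 and 6.69 in KO and 6.79, 5.89 and 6.36 in WT (0.54, or 0.31 without WT 2 and 0.34 without KO 1). Brix1, an early pre-60S factor, read 10.67, 10.52 and 10.19 in KO and 10.35, 9.88 and 9.96 in WT, so WT 1 lay above KO 3. It differed by 0.40 (0.31 without WT 2), the stem cell nucleolar GTPase Gnl3 (nucleostemin) by 0.30 (0.09) and the ribosomal RNA methyltransferase Nop2 by 0.24 (0.02). Noc2l (0.46), Nop16 (0.39), Ebna1bp2 (0.32), Rrp1b (0.26), Noc3l (0.22), Rrs1 (0.18) and the helicase Ddx18 (0.17) completed the group. Noc2l read 8.73, 8.41 and 8.52 in KO and 8.59, 7.57 and 8.12 in WT, and Ebna1bp2 9.90, 9.86 and 9.55 in KO and 9.82, 9.33 and 9.21 in WT. In both, WT 1 lay within the KO range.

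Among nucleolar proteins with several tasks, 4 of 5 were positive (56.2% of all genes). Mybbp1a, a nucleolar repressor of ribosomal RNA transcription that also binds p53, read 10.43, 10.65 and 10.56 in the KO mice and 10.16, 9.47 and 10.27 in the WT mice. The groups did not overlap, and the difference of 0.58 ± 0.25 (SE) was 0.33 without WT 2. Npm1 (nucleophosmin), an abundant chaperone of the granular nucleolus, read 14.10, 13.99 and 13.99 in KO and 13.87, 13.38 and 13.98 in WT. WT 3 nearly reached KO 2 and KO 3, and the difference of 0.28 was 0.10 without WT 2.

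Ncl (nucleolin), which binds the ribosomal RNA precursor, read 11.20, 12.68 and 12.40 in the KO mice and 12.09, 10.96 and 11.54 in the WT mice. KO 1 sat with the low controls, and the difference of 0.56 had the largest leave-one-out range of the members with a positive difference, from 0.27 without KO 2 to 1.01 without KO 1. The helicase gene Ddx21, which links polymerase I with RNA processing, read 8.16, 9.17 and 9.13 in KO and 9.22, 8.59 and 9.19 in WT. It had the lowest difference of the 48, -0.18, which turned to 0.15 without KO 1. Surf6 differed by 0.04.

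**Figure D2:**
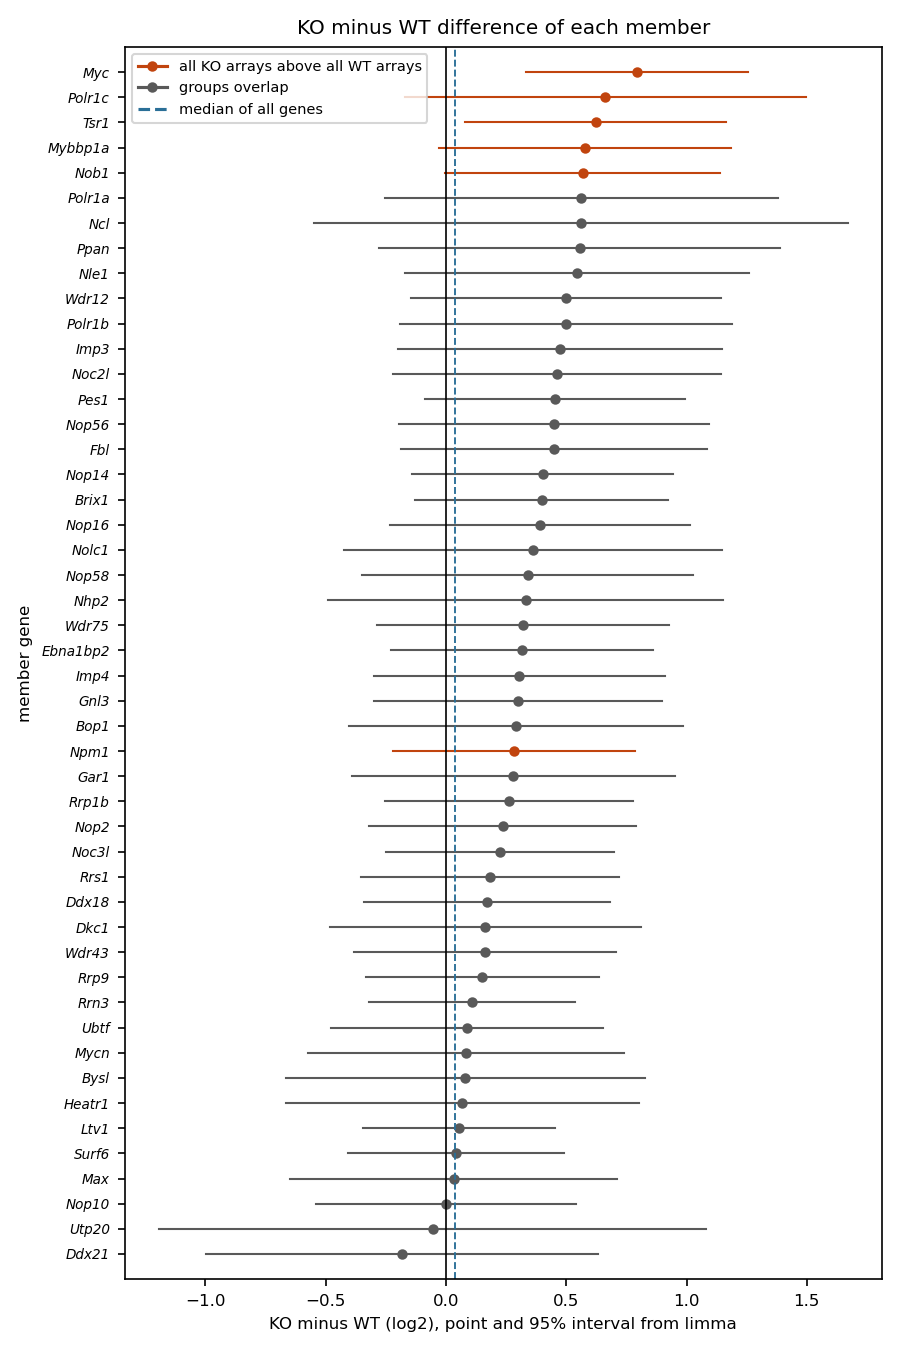
KO minus WT difference of each member on the log2 scale, with the 95% interval from limma, ordered by size; the dashed line is the median of all genes (0.04) and colour marks the 6 members whose KO arrays all lie above all WT arrays. In 46 of 48 members the interval includes 0, and the exceptions are Myc and Tsr1.

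**Figure D3:**
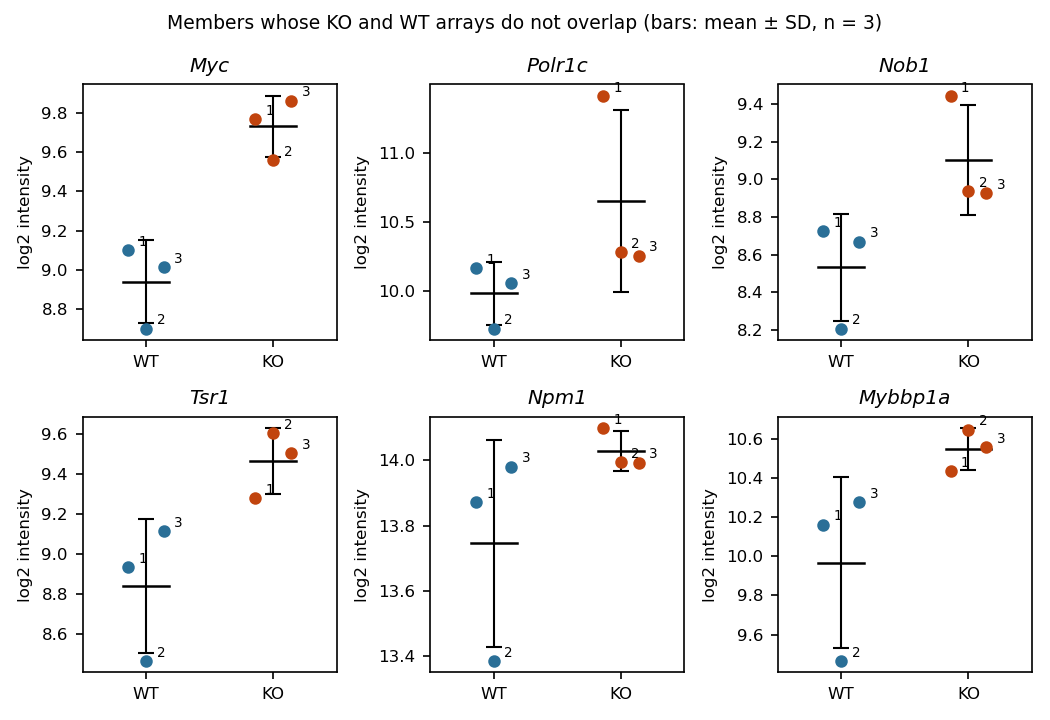
Log2 intensity of the 6 members whose genotypes did not overlap, with a numbered point for each mouse and the mean ± SD of 3 mice. WT 2 is the lowest point in all 6 panels, KO 1 stands above the other KO mice in Polr1c and Nob1, and the gap between the groups is widest for Myc.

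Several members had more than 1 probe set, and these did not always read the same. The 48 genes had 95 probe sets with their symbol alone, of which 80 passed the filter, 71 with a positive and 9 with a negative difference. Of 26 members with more than 1 such probe set, 18 had all of them in the same direction and 8 did not. The second Npm1 probe set read 13.18, 13.07 and 13.12 in KO and 12.70, 11.90 and 12.33 in WT, a difference of 0.82 with a clear gap between the groups, against 0.28 on the brighter one. The second Mybbp1a probe set differed by 0.74, and WT 1 (9.04) there lay above KO 1 (8.66).

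In Noc2l the probe sets opposed each other. The brighter one differed by 0.46, and the dimmer one read 5.78, 5.90 and 5.66 in KO and 6.57, 5.92 and 6.51 in WT, so that all KO arrays were below all WT arrays (-0.55, limma adjusted p = 0.999). Wdr12 (0.50 and -0.54) and Wdr75 (0.32 and -0.55) showed the same opposition, and in both WT 1 was the high array on the dimmer probe set (6.08 and 6.42). Ddx21 went the other way, with -0.18 on the brighter probe set and 0.41 on the dimmer. The 4 filtered Ncl probe sets differed by 0.56, 1.22, 0.17 and -0.00. Imp4, Bysl and Ebna1bp2 each had a dimmer probe set below 0 (-0.27, -0.05 and -0.06). Averaging the probe sets of each gene, 44 of 48 members were positive with a median of 0.26.

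Ribosome biogenesis genes outside the 48 showed the same pattern across arrays with a smaller shift. Of 69 listed, 68 were measured; 54 were positive and 14 negative, 0 passed over all probe sets, and the median difference was 0.17. WT 2 was their lowest array in 39 of 68. The 4 of smallest p separated the genotypes, with KO higher: the small subunit processome genes Utp14a (0.72) and Tbl3 (0.48), the pre-60S factor Nsa2 (0.65) and Taf1d (0.35), of the factor that selects the polymerase I promoter. Utp14a read 8.86, 8.62 and 8.68 in the KO mice and 8.22, 7.53 and 8.24 in the WT mice. Groups did not overlap in 8 of these 68 genes, each with KO above WT, where 5.54% of all genes did so and 3.99% had KO below WT.

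The remaining genes of the MAX network and other known MYC targets had smaller median differences. All 10 other members of the MAX and MLX network were measured, 7 positive and 3 negative with a median of 0.05. Mxd1, which competes with MYC for MAX in differentiating cells, read 10.24, 9.64 and 11.05 in KO and 8.68, 10.74 and 10.13 in WT (0.46), and the glucose-responsive factor genes Mlxip and Mlxipl differed by 0.48 and 0.24 and their partner Mlx by -0.12. Of 14 measured MYC targets that act outside the nucleolus, 9 were positive and 5 negative, with a median of 0.10. The spermidine synthase gene Srm (0.61), the cyclin-dependent kinase gene Cdk4 (0.47) and Shmt2 of serine metabolism (0.33) were positive with overlapping groups. Odc1, the polyamine enzyme and a textbook MYC target, read 12.36, 12.07 and 11.98 in KO and 12.42, 12.08 and 12.51 in WT (-0.20). No gene of either list passed limma's adjusted p of 0.05 or separated the genotypes. Among all genes, a gap between the genotypes was seen in 5.54% with KO higher and in 3.99% with KO lower. In lists of 10 and 14 genes, finding none therefore says little. For the signs, 56.2% of all genes had a positive difference.

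Cell cycle and crypt stem cell genes had positive median differences as the members did, with the widest gap to WT 2. Against WT 1, WT 2 and WT 3 in turn, the median difference of the cell cycle genes was 0.05, 0.88 and -0.02. That of the stem cell genes was 0.20, 0.86 and 0.21. The KO mean was above WT 3 in 7 of 16 cell cycle genes and in 5 of 8 stem cell genes. The difference was above 0 in 16 of 16 measured cell cycle genes, with a median of 0.27. It was above 0 in 7 of 8 stem cell genes, with a median of 0.49. Over all genes 56.2% were above 0, and the members' median was 0.31. No gene of either list passed limma's adjusted p of 0.05. All KO arrays were above all WT arrays in 2 of the cell cycle genes and in 3 of the stem cell genes. Over all genes 5.54% did so, and 3.99% had KO below WT. The 3 stem cell genes were Ascl2 (0.97), Axin2 (0.94) and Tnfrsf19 (0.81), named here after their values were seen. Of the others, Rnf43 differed by 0.71, Smoc2 by 0.27, Lgr5 by 0.08, Znrf3 by 0.02 and Olfm4 by -0.20. Both lists were low on WT 2. All 16 cell cycle genes had WT 2 as their lowest array, with a median deviation of -0.78 there, against 0.13 on WT 3 and 0.06 to 0.17 on the KO arrays. The cell cycle list mean was 9.63 on WT 2 and between 10.46 and 10.60 on the other 5 arrays. Of 8 crypt stem cell genes, 5 had WT 2 as lowest (median deviation -0.76), and the list mean was 7.69 on WT 2 and 8.41 to 8.75 elsewhere. On WT 3 the median deviation was -0.14 in the members and 0.13 in the cell cycle genes. That single array also had the highest Gapdh 3' minus 5' control difference (1.75, against 0.37 to 0.91 on the other arrays), given below. The part of dividing or stem cells in the members' difference was not tested.

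**Figure D4:**
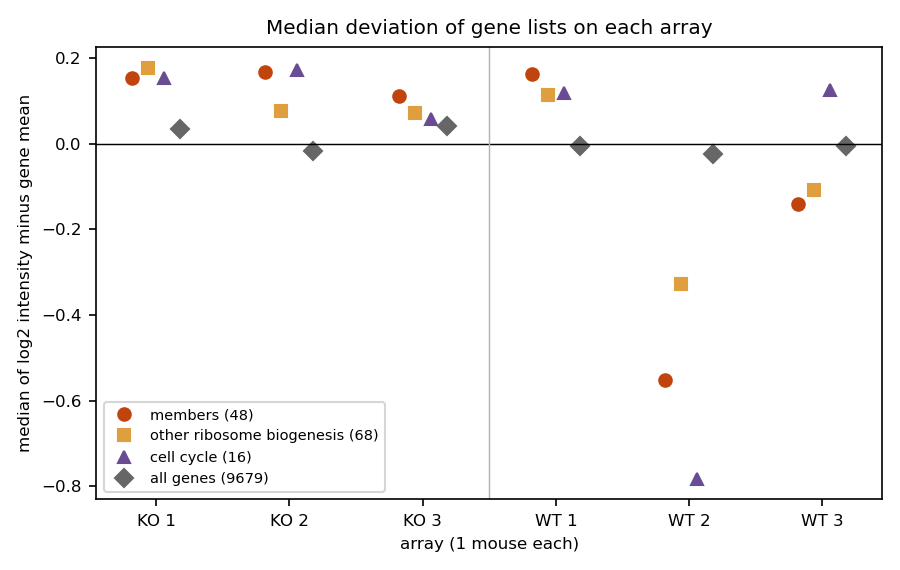
Median over each list of log2 intensity minus the gene's mean over the 6 arrays, for the 48 members, 68 other ribosome biogenesis genes, 16 cell cycle genes and all 9679 genes. The first 3 lists drop together on WT 2 (-0.55, -0.33 and -0.78) while all genes stay near 0; on WT 3 the members (-0.14) lie below the cell cycle genes (0.13).

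The sex-linked signal also moved with the genotypes. On the 4 arrays with high Xist, the 3 KO arrays against WT 3, 40 of 48 members were positive with a median of 0.28, against 54.3% of all genes and a median of 0.03. A term for Y-linked signal gave 40 of 48 and a median of 0.24. The large subunit genes were positive in 15 of 15 on those 4 arrays (median 0.34) and the polymerase I genes in 2 of 5 (-0.01). A single control carries that comparison, so the spread among such controls is unknown. The term for Y-linked signal leans on the same control, as only WT 1 and WT 2 were high in that signal, so it is not a separate check. The Gapdh 3' minus 5' control difference, a measure of RNA integrity, was 1.75 on WT 3 and 0.37 to 0.91 on the other arrays; with a term for it 43 of 48 members were positive, with a median of 0.32.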

How the data were processed

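RNA from jejunal crypts of 3 Sox9 deficient and 3 wild type mice was measured with 1 array for each. The authors deposited log2 intensities; per the submitters' processing notes they were made with GCRMA, and limma was used too. GCRMA corrects background by probe sequence and draws dim probe sets to a floor, which compresses differences there. All 6 columns of the table belong to these samples.

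The 64 control probe sets were left out of 45101, and the platform annotation gave 34945 of the rest a single symbol, 932 more than 1 and 9160 no symbol. The 18108 probe sets whose mean reached 4 were fitted with limma 3.58.1 (R 4.3.3; lmFit and eBayes, 2 groups, two-sided) with Benjamini-Hochberg adjustment over all of them, and a threshold of 0.05. The p-values describe the spread between these mice. The fit was also run on simulated data whose noise was independent between probe sets. Such data hold no shift shared by many genes on an array, so they do not bear on one. Each gene used its brightest probe set. Members were named by role: all of them, with array values for 9 fixed genes, those whose groups did not overlap, the 12 of smallest p and those whose probe sets disagree in direction, and for some further members chosen after their values were seen. Members and lists were chosen with earlier results of these data known, so counts over them are descriptions. No set test was run. Alternatives were a replicate block, other filters, quantile normalization, median centring, a trended and robust prior, the mean of probe sets, terms for Y-linked signal and for the Gapdh 3' minus 5' control difference, and leaving out each array. Added after the data had been seen were arrays with high Xist alone, centring over filtered probe sets and unique probe set designs.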

Additional observations from a re-analysis of the deposited data

How the results depend on the processing

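No member tested passed an adjusted p of 0.05 in limma under any of the 18 alternatives; all 48 were tested except with a filter at 6 (47, without Rrp1b) and with unique probe set designs (46, without Gar1 and Tsr1). The members' median difference stayed positive, from 0.14 without WT 2 to 0.50 without WT 1, and the count of positive members stayed between 38 (without WT 2) and 46, with 45 of 47 and 44 of 46 in those last settings. Leaving out arrays gave Myc 0.68 to 0.88. With a replicate block (KO 1 with WT 1 and so on) the median was 0.31 and Myc differed by 0.80, and 0 probe sets passed; the deviations of arrays that share a number correlated at -0.05, -0.29 and 0.03, so the numbers were not taken as pairs. The count of probe sets past the threshold, 2, was 1 with a filter at 6, 0 with no filter, 0 with the Y-linked or Gapdh term, 0 on the arrays with high Xist, 4 with quantile normalization, 4 with centring over filtered probe sets, 7 with the mean of probe sets, and 0 to 16 with an array left out (0 without WT 1 or WT 2, 1 without KO 2, 16 without WT 3). The comparison on the arrays with high Xist and the one with the Y-linked term both lean on WT 3. In both, signs turned in Polr1b (-0.0094 and -0.036), Ubtf (-0.092 and -0.13) and Rrn3 (-0.074 and -0.079). With the mean of probe sets they turned in Wdr75 (-0.12), Wdr12 (-0.019), Noc2l (-0.046) and Ddx21 (0.11). Max turned with centring over filtered probe sets (-0.0042) and with the Gapdh term (-0.12). With an array left out the range crossed 0 in Mycn (-0.18 to 0.31), Max (-0.19 to 0.25) and Ubtf (-0.088 to 0.24). It also crossed 0 in Bysl (-0.17 to 0.39) and Ddx21 (-0.39 to 0.15). These are 5 of the 25 members named by rule. Over all 48 members, 13 changed sign with an array left out and 35 stayed positive. The cause was not tested. Of the 25 named by rule, 14 besides Myc kept their sign in every alternative run for them (Tsr1 had no value with unique probe set designs). Limits are 3 mice in each group, 1 control (WT 2) low in most members, and sex-linked signal that overlaps with genotype.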
